A study of Mus musculus with 32 samples.

Results

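The 9 genes described here carry or restrain the signal of interferons, and they were taken by symbol as *Irf1*, *Irf2*, *Irf7*, *Irf8*, *Irf9*, *Stat2*, *Socs1*, *Ifngr1* and *Ifngr2*. All 9 were found in both tables, which list 29511 genes as counts and 29434 gene symbols as FPKM, fragments scaled to transcript length and sequencing depth. RNA was sequenced from 32 samples of FVB/N mice that were wildtype (WT) or knockout (KO) for *Clic4*, an intracellular chloride channel protein. Primary tumors were measured in 6 hosts of each genotype, lungs in 6 tumor-bearing mice of each genotype, and lungs in 4 KO and 4 WT controls without an orthograft. The labels do not say whether a tumor and a lung came from the same mouse. Tumors and tumor-bearing lungs were taken 14 days after 6DT1 cells were placed in the mammary fat pad, and control lungs at baseline. By the study's methods the hosts were young virgin females bred as littermates from heterozygous crosses, and the labels give no age. 6DT1 is a mammary tumor line that carries *Clic4* in either host, so a KO tumor here is a tumor of *Clic4*-bearing cells in a KO mouse. Each sample is whole tissue, in which fewer cells of a type and less RNA per cell cannot be told apart.

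Interferon gamma, the type II interferon, binds a receptor made of Ifngr1 and Ifngr2, and the kinases Jak1 and Jak2 pass its signal on to GAS sites in DNA, among others at *Irf1*, which encodes a transcription factor for a next wave of genes. Type I interferons instead form a complex that holds Stat2 and Irf9 and binds ISRE sites, and Irf7 amplifies their production. Irf2 can oppose Irf1 at shared sites, Irf8 directs myeloid and dendritic cell fate, and Socs1 blocks the Jak kinases as a feedback inhibitor.

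The 9 genes are placed here on GRCm38, by GENCODE M21. The receptor chain genes are *Ifngr1* (ENSMUSG00000020009, chr10:19591949-19610229) and *Ifngr2* (ENSMUSG00000022965, chr16:91547072-91565623), both on the plus strand. *Stat2* (ENSMUSG00000040033) is at chr10:128270559-128292849, *Irf9* (ENSMUSG00000002325) at chr14:55603571-55610030 and *Irf1* (ENSMUSG00000018899) at chr11:53770014-53778374, again on the plus strand. *Irf2* (ENSMUSG00000031627) and *Irf8* (ENSMUSG00000041515) share a chromosome, at chr8:46739732-46847458 and chr8:120736358-120756694 on the plus strand. *Irf7* (ENSMUSG00000025498, chr7:141262706-141266481) and *Socs1* (ENSMUSG00000038037, chr16:10782240-10785536) are on the minus strand. *Irf9* overlaps *Rnf31* and *Irf8* overlaps *Gm20388* on the same strand, so their reads could have been split between genes. *Irf1* overlaps *Gm17334*, *Irf7* overlaps *Phrf1* and *Irf2* overlaps several noncoding models on the opposite strand, and the strand setting of the counting is not given in the sources used here.

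The 250 bases before a start site listed by RefSeq (GRCm38.p6) were read for all 9 genes, taking for *Irf1*, *Irf8* and *Irf9*, with 2 windows each, the start nearest to that of GENCODE. The RefSeq start of *Irf9* lies 414 bases inside the gene as placed above, so its whole window is within the gene, and the windows of *Irf7* and *Irf2* run 57 and 13 bases into theirs. The windows were searched on both strands for TTCNNNGAA (GAS) and GAAANNGAAA (ISRE). Of all 32851 windows of this length, 7.02% held a GAS match and 2.98% an ISRE match. Among the 9 genes 5 held a match, and these windows are shown because they include the 4 genes that rose in KO tumors. They are written 5' to 3' on the gene's strand, with matches in capitals.
Irf1 (chr11:53769764-53770013, plus strand): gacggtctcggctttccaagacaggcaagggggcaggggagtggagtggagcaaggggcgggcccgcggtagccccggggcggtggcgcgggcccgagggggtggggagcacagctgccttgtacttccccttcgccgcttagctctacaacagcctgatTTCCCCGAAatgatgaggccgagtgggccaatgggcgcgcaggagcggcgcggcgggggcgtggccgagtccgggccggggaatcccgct
Irf8 (chr8:120736108-120736357, plus strand): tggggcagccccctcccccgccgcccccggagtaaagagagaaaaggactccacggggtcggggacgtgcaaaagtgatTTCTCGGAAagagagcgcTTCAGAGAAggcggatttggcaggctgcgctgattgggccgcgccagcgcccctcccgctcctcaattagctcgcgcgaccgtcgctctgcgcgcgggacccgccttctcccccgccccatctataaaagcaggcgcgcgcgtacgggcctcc
Socs1 (chr16:10785537-10785786, minus strand): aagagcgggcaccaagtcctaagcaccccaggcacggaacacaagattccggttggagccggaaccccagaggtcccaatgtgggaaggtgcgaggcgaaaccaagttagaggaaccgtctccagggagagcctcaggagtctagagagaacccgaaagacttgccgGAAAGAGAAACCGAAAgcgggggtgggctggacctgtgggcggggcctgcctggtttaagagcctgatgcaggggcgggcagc
Stat2 (chr10:128270248-128270497, plus strand): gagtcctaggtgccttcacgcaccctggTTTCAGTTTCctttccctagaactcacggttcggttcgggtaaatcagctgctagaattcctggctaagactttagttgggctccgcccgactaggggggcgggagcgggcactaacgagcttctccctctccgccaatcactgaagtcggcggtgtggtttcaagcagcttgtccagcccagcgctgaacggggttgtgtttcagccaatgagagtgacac
Irf2 (chr8:46739495-46739744, plus strand): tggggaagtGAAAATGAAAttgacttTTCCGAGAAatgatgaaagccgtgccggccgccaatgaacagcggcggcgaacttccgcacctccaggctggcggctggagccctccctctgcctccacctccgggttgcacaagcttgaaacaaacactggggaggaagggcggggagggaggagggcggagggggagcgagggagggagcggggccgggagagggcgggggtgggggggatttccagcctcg
The *Irf1* window held 1 GAS match, TTCCCCGAA, whose first base lies at -90 from the start. The *Irf8* window held 2 GAS matches, at -171 and -153. *Socs1* held 2 overlapping ISRE matches, at -83 and -77, and *Stat2* held 1 on the opposite strand, read as TTTCAGTTTC, at -222. *Irf2*, which did not pass the test in tumors, held an ISRE match at -241 and a GAS match at -224. These letters were not found in the windows read for *Irf7*, *Irf9*, *Ifngr1* and *Ifngr2*, of which that of *Irf9* does not cover the bases before its GENCODE start. A match is a string of letters and not a measured binding site.

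The sum of gene counts ranged from 4446323 to 8318711 per sample. *Clic4* checked the labels: its FPKM was 55.4 to 74.6 in KO lungs and 155 to 230 in WT lungs, and 58.9 to 69.0 in KO tumors and 74.7 to 82.2 in WT tumors, without overlap. Lung epithelium markers summed to at least 30676 FPKM in every lung and at most 2.68 in any tumor, where *Lamp3* was listed at 0. Small noncoding transcripts (Rn7s1, Rn7s2, Rn7sk) made up 58.1 to 70.2% of the summed FPKM, which lowers the FPKM of the other genes. Single genes were tested on counts, with log2 FPKM as an alternative. The ratio tests used the FPKM of 2 genes in the same sample. Among the lungs, 3 samples of different groups stood far apart for *Irf7*, *Irf9* and *Stat2*: the 14-day KO lung of replicate 2, the 14-day WT lung of replicate 5 and the control WT lung of replicate 4. For these 3 genes, values with and without those lungs are set side by side in the lung comparisons.

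In tumors from KO hosts, 4 of the 9 genes were higher than in tumors from WT hosts: *Socs1* by 2.82-fold, *Irf1* by 2.24-fold, *Stat2* by 1.99-fold and *Irf8* by 1.65-fold. The other 5, *Irf2*, *Irf7*, *Irf9*, *Ifngr1* and *Ifngr2*, did not pass an FDR of 0.05 in edgeR's quasi-likelihood test. The same limit called 2.51% of the 13830 genes tested. All 9 estimates were positive, with a median log2 fold change of 0.60, against -0.01 over all genes tested, of which 47.7% were positive.

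*Irf1*, the interferon gamma response factor, had the smallest p of the 9. Its FPKM in WT tumors was 32.4 at the lowest, 34.4 at the median and 40.6 at the highest, and in KO tumors 59.8, 79.6 and 84.6. Every KO tumor thus lay above every WT tumor, with means of 75.1 ± 10.6 and 35.1 ± 3.09 (SD, n = 6 each). The log2 fold change was 1.16 (SE 0.10, adjusted p = 4.33e-05).

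*Socs1*, the feedback inhibitor, was a low gene that rose from 2.32 ± 0.513 FPKM in WT tumors to 6.37 ± 1.72 in KO tumors (SD, n = 6 each). WT tumors spanned 1.56 to 3.04 FPKM and KO tumors 4.34 to 8.85. The groups did not overlap, and the log2 fold change was 1.497 (SE 0.23, adjusted p = 0.00188). These levels rest on few reads, 9 to 15 counts in a WT tumor and 22 to 42 in a KO tumor.

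*Irf8*, the myeloid lineage factor, rose from 18.7 ± 2.76 to 29.2 ± 6.51 FPKM (SD, n = 6 each), with a log2 fold change of 0.72 (SE 0.13, adjusted p = 0.00452). WT tumors ran from 15.2 to 21.2 FPKM with a median of 19.5, and KO tumors from 20.8 to 37.2 with a median of 29.0. In FPKM the lowest KO tumor fell just under the highest WT tumor, while in TMM-normalized counts the groups did not overlap. The call was lost with limma on log2(FPKM + 1), at an adjusted p of 0.0528.

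*Stat2*, the partner of Irf9 in the type I complex, rose from 10.7 ± 2.12 to 20.5 ± 7.35 FPKM (SD, n = 6 each). WT tumors spanned 8.70 to 14.6 FPKM around a median of 10.1, and KO tumors 13.2 to 33.9 around a median of 18.6, so the groups overlapped. The log2 fold change was 0.99 (SE 0.20, adjusted p = 0.0135). For *Irf1*, *Irf8* and *Socs1* every KO tumor lay above every WT tumor in normalized counts, a pattern that 1.49% of all genes tested showed. *Irf1* and *Socs1* also passed a 2-fold limit, which 1.06% of all genes did.

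The type I factors *Irf7* and *Irf9* spread widely among tumors of the same host genotype. *Irf7* was 16.6, 27.9 and 50.5 FPKM at the lowest, median and highest in WT tumors and 21.9, 40.5 and 83.2 in KO tumors. Its log2 fold change of 0.60 had an SE of 0.31 (adjusted p = 0.384). *Irf9* was 19.6 to 28.4 FPKM in WT tumors and 20.3 to 38.9 in KO tumors, with a log2 fold change of 0.34 (SE 0.13, adjusted p = 0.207). The KO tumor of replicate 2 was the highest KO tumor for *Irf7*, *Irf9* and *Stat2*.

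The receptor chains and *Irf2*, the antagonist of Irf1, overlapped between KO and WT tumors. *Ifngr1* was 27.1 ± 7.30 FPKM in WT and 32.5 ± 4.14 in KO tumors, with a log2 fold change of 0.27 (SE 0.12, adjusted p = 0.309). *Ifngr2* was 13.0 ± 3.97 and 14.9 ± 3.23 FPKM, with a log2 fold change of 0.21 (SE 0.11, adjusted p = 0.363). *Irf2* was 9.96 ± 1.09 and 11.9 ± 1.53 FPKM (SD, n = 6 each), with a log2 fold change of 0.30 (SE 0.10, adjusted p = 0.169).

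**Figure D1:**
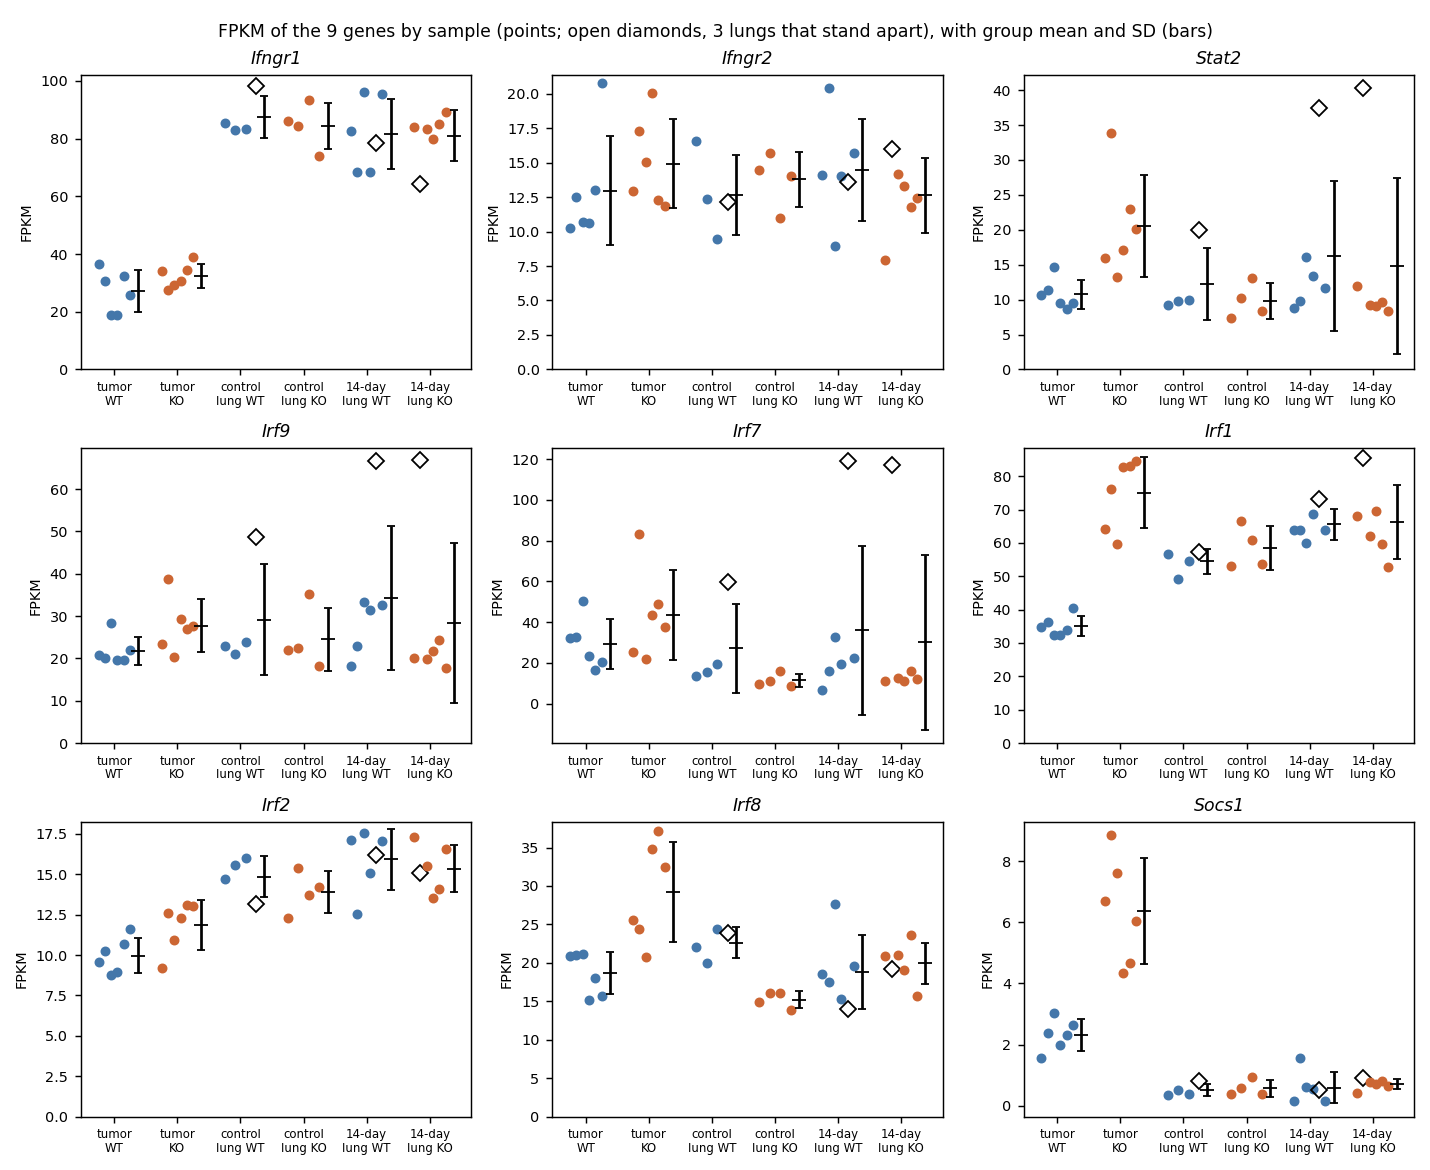
FPKM of the 9 genes (y axis, linear, 1 panel a gene) in each sample (points, colored by genotype) by group, with the group mean and SD. *Irf1* and *Socs1* of KO tumors sit above all WT tumors, and the 3 lungs that stood apart reach 59.8 to 119 FPKM for *Irf7*.

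Since Irf1 and Irf2 can act at the same sites, the ratio of their FPKM was compared in each sample. The mean log2 ratio of *Irf1* to *Irf2* was 1.82 ± 0.0796 in WT tumors and 2.66 ± 0.126 in KO tumors (SD, n = 6 each), that is 3.53 and 6.33 as plain ratios. WT tumors spanned 1.67 to 1.89 and KO tumors 2.45 to 2.81 on the log2 scale, so the groups did not overlap. The difference of 0.84 gave p = 0.00216 in a two-sided exact permutation test, the smallest that 6 against 6 samples allow, and 0.0173 adjusted over the 8 ratio tests made. For *Irf1* alone every KO tumor already lay above every WT tumor, so this test is not independent of that result. The log2 ratio of *Ifngr2* to *Ifngr1* was -1.06 ± 0.524 in WT tumors and -1.14 ± 0.458 in KO tumors, which overlapped (SD, n = 6 each; exact permutation p = 0.777, adjusted 0.888).

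Other genes of the pathway were examined in tumors by role, from a list of 102 genes that includes the 9. The 13 type II targets, which include guanylate-binding proteins, chemokines and antigen processing genes, all passed the test and were higher in KO tumors. The same limit called 2.02% of all genes tested higher. The list was chosen with earlier results of these data known, so its count is a description. Log2 fold changes of these targets ran from 1.18 to 3.28, with a median of 1.73. *Psmb9* (1.66), *Psmb8* (1.32) and *Tap1* (1.52), genes of the immunoproteasome and of peptide transport, had the smallest p among them. Of the 13 type I targets, antiviral genes such as *Isg15*, none passed edgeR's test, although all 13 estimates were positive, with a median of 0.52. In that list 3 genes had an unadjusted p under 0.05, as did 15.5% of all genes tested, and DESeq2 called 1. Whether the lists of targets differ from each other was not tested.

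Among the signal carriers, 6 Stat genes were tested, of which edgeR called 1, *Stat2*, and DESeq2 3. Over all 13830 genes tested edgeR called 347 and DESeq2 549, and 15.5% had an unadjusted p under 0.05. *Jak2*, a kinase of the interferon gamma receptor, rose by 0.50 on the log2 scale (SE 0.08, adjusted p = 0.00163), as 1 of 4 kinases. *Jak1* (0.08) and *Tyk2* (0.21) did not pass. Of 5 receptor genes tested, edgeR and DESeq2 called 0, with 2 at an unadjusted p under 0.05, and the log2 fold changes were 0.05 for *Ifnar1* and 0.29 for *Ifnar2*, the type I receptor chains.

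Of 8 Irf genes tested, 3 rose, *Irf1*, *Irf8* and *Irf5*, a factor of macrophage activation, which had a log2 fold change of 0.57 (SE 0.11, adjusted p = 0.00906). *Irf3* (-0.04) and *Irf4* (0.47) did not pass, and the sign for *Irf3* turned when single tumors were left out. Among 10 partners of Irf proteins tested, 3 rose: *Nlrc5* (1.76), the transactivator of MHC class I genes, *Ciita* (1.35), that of MHC class II genes, and *Batf2* (1.67), which pairs with Irf1. Of 17 inhibitors, *Socs1* and *Socs3* (0.73) rose, and the median log2 fold change of the role was 0.06. Of 14 sensors and adaptors, *Zbp1* (1.601), a nucleic acid sensor, rose. Across the 81 pathway genes tested apart from the 9, 20 rose and 0 fell by edgeR, with 43 at an unadjusted p under 0.05 and a median log2 fold change of 0.34. Of all genes tested 2.02% rose at that limit, and 15.5% had an unadjusted p under 0.05.

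**Figure D2:**
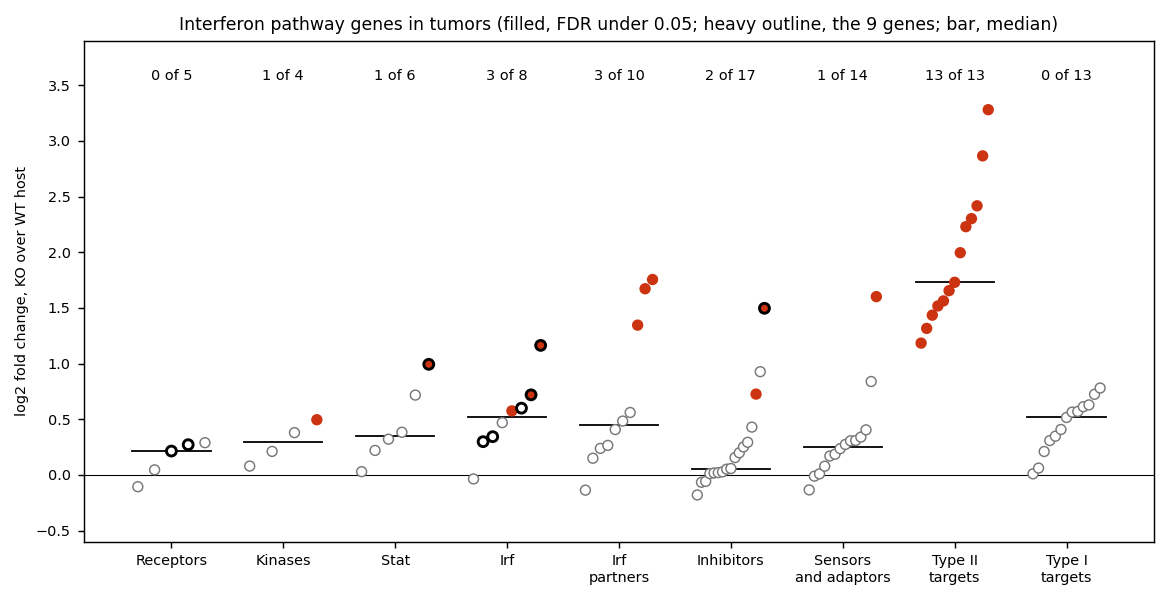
Log2 fold changes of KO over WT hosts in tumors (y axis) for each tested gene of the interferon pathway list, by role. Filled points passed the FDR of 0.05, and all 13 type II targets are filled and none of the 13 type I targets. The lists were chosen with earlier results of these data known.

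*Ifng*, the ligand itself, was too low to be tested. Its counts in replicates 1 to 6 were 8, 2, 2, 5, 17 and 4 in KO tumors and 3, 1, 0, 0, 2 and 0 in WT tumors, and the ranges overlapped. In the 8 control lungs *Ifng* was at 0 counts, and in 14-day lungs at 4 counts or fewer. Markers of immune cells were examined in the same tumors, where 2.02% of all genes tested were called higher. The 7 T cell markers summed to 8.74 to 26.0 FPKM in WT tumors and 18.3 to 36.8 in KO tumors, and 2 of 5 tested (*Cd3d* and *Cd3g*) were called higher. The 7 macrophage markers summed to 294 to 635 FPKM in WT and 503 to 788 in KO tumors, with 1 of 7 (*C1qb*) called higher. The 3 leukocyte markers summed to 62.7 to 171 and 131 to 178 FPKM, with 1 of 3 (*Laptm5*) called higher. Called or not, 5 of 5 tested T cell, 6 of 7 macrophage and 3 of 3 leukocyte markers had positive estimates. The median log2 fold changes were 1.14, 0.46 and 0.47. NK cell markers summed to 2.79 to 7.60 FPKM in WT and 4.13 to 6.39 in KO tumors, and dendritic cell markers to 7.62 to 15.1 and 11.3 to 14.4, with no marker of either past the limit by edgeR. Positive estimates were found for 2 of 3 tested NK cell and 4 of 7 dendritic cell markers, with medians of 0.20 and 0.15. Neutrophil markers summed to 22.8 to 30.4 FPKM in WT and 9.86 to 53.3 in KO tumors, with 0 of 4 tested past the limit and *Ly6g* listed at 0 in all tumors. All 4 tested neutrophil markers had positive estimates, with a median of 0.40. B cell markers, at 0.28 to 23.2 and 0.70 to 2.59 FPKM, were too low to be tested. In the other 5 lists no marker was at 0 in all tumors of a group. Their part in the differences of the 9 genes was not tested.

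In the lungs, 8 of the 9 genes passed the filter on low counts. *Socs1* did not, at 1 to 8 counts in each lung, and its mean FPKM was 0.515 to 0.713 in the 4 lung groups. Lungs were read at an FDR of 0.25.

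Between 14-day and control lungs, edgeR and DESeq2 called 0 of the 8 genes in KO and in WT mice, where edgeR called 1.05% and 2.33% of the 16029 genes tested. *Irf1* in control WT lungs was 56.8, 49.1, 54.6 and 57.4 FPKM, below the 14-day WT lungs at 60.0 to 73.2. In TMM-normalized counts these groups overlapped, where 2.98% of all genes tested did not. Its log2 fold change was 0.24 (SE 0.10), with an adjusted p of 0.379 over all genes. In KO lungs *Irf1* was 58.5 ± 6.45 (SD, n = 4) and 66.3 ± 11.2 FPKM (SD, n = 6), and the ranges overlapped, with a log2 fold change of 0.17. In each genotype 1 of the 8 genes had an unadjusted p under 0.05, *Irf8* in KO and *Irf1* in WT lungs, as did 8.64% of all genes tested in KO and 11.8% in WT lungs.

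The estimates for *Irf7*, *Stat2* and *Irf9*, the type I factors, rested on single lungs. *Irf7* was at 117 FPKM in the 14-day KO lung of replicate 2, against 10.98 to 16.3 in the other 5 of that group. It was at 119 in the 14-day WT lung of replicate 5, against 6.84 to 32.5 in the others. In control WT lungs it was 13.7, 15.5, 19.6 and 59.8 FPKM, and in control KO lungs 9.79, 11.1, 16.3 and 8.82. So 1 high lung was seen in 3 of the 4 lung groups, in each genotype and with or without a tumor.

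*Stat2* and *Irf9* were high in the same 3 lungs. In the order KO 14-day, WT 14-day and WT control, *Stat2* was at 40.3, 37.5 and 20.02 FPKM there, and between 7.38 and 16.1 in the other 17 lungs. *Irf9* was at 66.9, 66.8 and 48.7 FPKM, and between 17.6 and 35.3 in the others. The antiviral effector *Isg15* was at 106, 83.1 and 26.6 FPKM in these lungs. *Irf1* was the highest of its group in each of them, at 85.6, 73.2 and 57.4 FPKM. *Irf8* was at 19.2, 14.1 and 23.9 FPKM and was in none of them the highest of its group in FPKM. In normalized counts it was the highest in the control WT lung, at 0.17 above the group mean on the log2 scale.

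For *Irf7*, the log2 fold change of 14-day against control lungs was 1.43 in KO lungs (SE 0.81) with all samples and 0.16 without the 3 lungs, and 0.32 (SE 0.72) and 0.20 in WT lungs. For *Stat2* it was 0.61 and -0.02 in KO lungs, and 0.41 and 0.30 in WT lungs. For *Irf9* it was 0.23 and -0.19 in KO lungs, and 0.25 and 0.26 in WT lungs. None of these 3 genes passed the limit by edgeR with or without the 3 lungs.

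**Figure D3:**
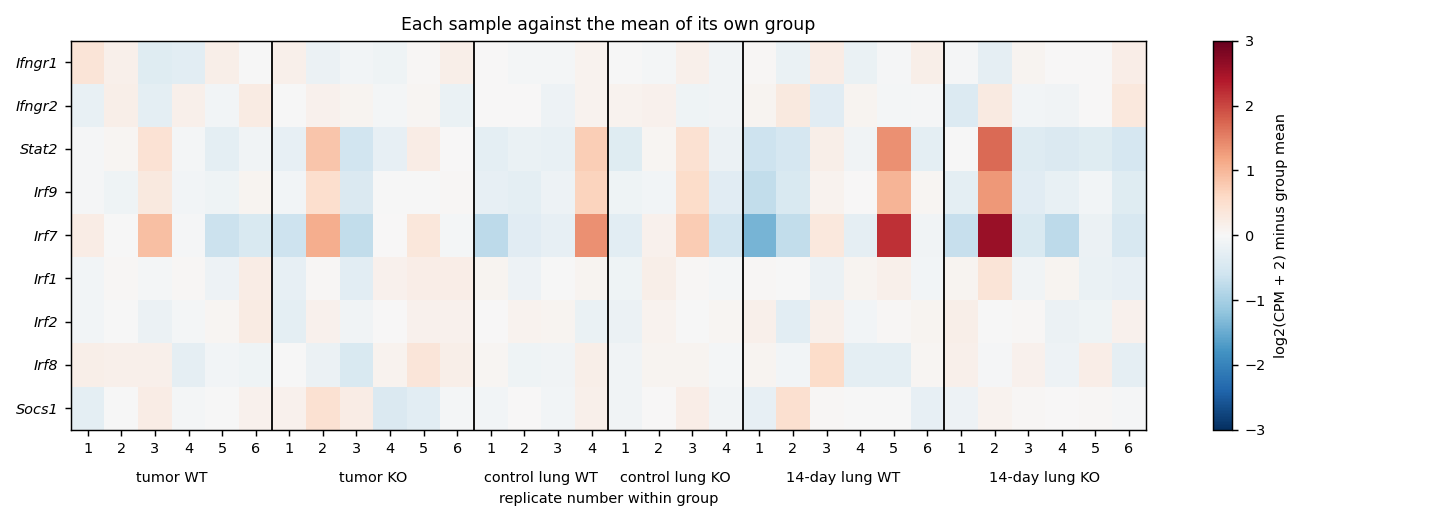
Deviation of each sample from the mean of its group in log2(CPM + 2) (color), for the 9 genes (rows) in 32 samples (columns, by group and replicate number). *Irf7*, *Irf9* and *Stat2* are raised together in 3 lungs, with *Irf7* up to 2.60 above its group mean.

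Across the 32 samples, after subtraction of each group's mean, *Irf7*, *Irf9* and *Stat2* varied together, with a Pearson r of log2(CPM + 2) of 0.94 to 0.96 for their 3 pairs. Without the 3 lungs (29 samples) r was 0.81 to 0.86. *Irf1* and *Irf7* gave an r of 0.46, which was 0.09 without the 3 lungs. *Irf8* and *Irf7* gave 0.08 and 0.37, and *Irf1* and *Irf8* 0.11 and 0.21. The 2 values of a pair share their library and its depth, and the correlations are descriptions.

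By the same r over 32 samples, the genes most like *Irf7* were *Xaf1* (0.98), *Adar* (0.98) and *Oasl2* (0.98), and without the 3 lungs these were 0.94, 0.93 and 0.93. *Irf9* was most like *Xaf1* (0.96), *Irf7* (0.96) and *Oasl2* (0.95), and *Stat2* most like *Ifit1* (0.96), *Irf7* (0.96) and *Oasl2* (0.96). *Irf8* was most like the chemokine genes *Cxcl16* (0.77) and *Ccl5* (0.71), and *Efhd2* (0.71). *Ifngr1* was most like the leukocyte genes *Alox5ap* (0.77), *Stat4* (0.76) and *Selplg* (0.76). For *Irf1* the closest were *Krit1* (0.75), *Stxbp3* (0.75) and *RP23-443O1.1* (0.73), and for *Irf2* *Hpse2* (0.72), *4930431P03Rik* (0.71) and *BC030336* (0.66). For *Ifngr2* they were *Abcd3* (0.77), *Dpp7* (0.74) and *5730507C01Rik* (0.70), and for *Socs1*, at its few counts, *Mlst8* (0.65), *Gsk3a* (0.65) and *Kdm2a* (0.64).

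Between KO and WT lungs at 14 days, edgeR and DESeq2 called 0 of the 8 genes, where edgeR called 0.861% of all genes, and 0 of the 8 had an unadjusted p under 0.05. Their log2 fold changes lay between -0.27 for *Irf9* (SE 0.31) and 0.08 for *Irf8* (SE 0.12). The estimate for *Irf9* was -0.40 without the 3 lungs that stood apart, 0.02 without the WT lung of replicate 5 alone and -0.69 without the KO lung of replicate 2 alone. For *Irf7* it was -0.18 with all samples and -0.56, 0.72 and -1.44 in these 3 fits, and for *Stat2* -0.13, -0.30, 0.32 and -0.75. So the sign for each of these genes turned with a single WT lung, and none of them passed the limit in any of these fits by edgeR. The log2 ratio of *Irf1* to *Irf2* was 2.05 ± 0.222 in WT and 2.10 ± 0.297 in KO lungs (SD, n = 6 each; exact permutation p = 0.747, adjusted 0.888). That of *Ifngr2* to *Ifngr1* was -2.52 ± 0.543 and -2.71 ± 0.459 (SD, n = 6 each; exact permutation p = 0.563, adjusted 0.888). For 14-day against control lungs, the other 4 ratio tests gave adjusted p of 0.838 to 0.914 by the exact permutation test.

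In control lungs, *Irf8* was lower in KO than in WT mice. It was 14.9, 16.1, 16.0 and 13.8 FPKM in KO lungs and 22.1, 20.03, 24.5 and 23.9 in WT lungs, so every KO lung lay below every WT lung. The log2 fold change was -0.51 (SE 0.15), and the adjusted p of 0.249 was just under the limit of 0.25. Of all genes tested 0.973% were called, and 7.60% had groups of control lungs that did not overlap. This call was lost with the replicate number as a block (adjusted p = 0.266) and in each of the 8 fits that left out 1 control lung (adjusted p of 0.272 to 0.481). The difference is also under 1.5-fold, a limit with which 0 of the 8 genes were called. For the type I factors in control lungs, the log2 fold change of KO against WT was -1.28 with all samples and -0.51 without the 3 lungs that stood apart for *Irf7*, -0.25 and 0.05 for *Irf9*, and -0.32 and 0.01 for *Stat2*, none past the limit by edgeR. The 4 B cell markers summed to 12.8 to 33.7 FPKM in KO and 35.2 to 49.5 in WT control lungs, without overlap, and the 7 T cell markers to 20.7 to 38.3 and 35.3 to 48.2, with overlap. The 4 NK cell markers summed to 4.48 to 14.1 FPKM in KO and 10.7 to 22.7 in WT control lungs, and the 3 leukocyte markers to 110 to 185 and 163 to 210, both with overlap. All tested markers of these 4 lists had lower estimates in KO lungs, with a median log2 fold change of -0.69 for 4 B cell, -0.61 for 3 NK cell, -0.39 for 7 T cell and -0.24 for 3 leukocyte markers, and none passed the limit by edgeR. Dendritic cell markers were at 49.9 to 58.1 FPKM in KO and 52.9 to 56.4 in WT control lungs. Among myeloid lists, 4 of 7 dendritic cell, 4 of 7 macrophage and 3 of 4 tested neutrophil markers had higher estimates in KO lungs. Their medians were 0.10, 0.03 and 0.17, with none past the limit by edgeR. The part of all these markers was not tested.

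In 14-day lungs *Irf8* was 18.8 ± 4.80 FPKM in WT and 19.9 ± 2.63 in KO mice (SD, n = 6 each), with overlap. From control to 14-day lungs its log2 fold change was 0.38 in KO (SE 0.14, adjusted p = 0.397) and -0.22 in WT mice (SE 0.13, adjusted p = 0.541). The difference of these, the interaction of genotype and tumor, was 0.59 (SE 0.19), with an unadjusted p of 0.00512 and an adjusted p of 0.407 in edgeR's test. In the same term all tested B cell, T cell, leukocyte and NK cell markers had positive estimates. Their medians were 0.94, 0.49, 0.43 and 0.28, with none past the limit by edgeR. Positive estimates were fewer among macrophage (3 of 7), dendritic cell (3 of 7) and neutrophil markers (1 of 4 tested). The medians of these lists were -0.04, -0.06 and -0.34, also with none past the limit. The part of all these markers was not tested. For the type I factors the interaction was 1.11 with all samples and -0.04 without the 3 lungs for *Irf7*, -0.02 and -0.45 for *Irf9*, and 0.19 and -0.32 for *Stat2*. edgeR called 0 of the 8 genes and 0.0499% of all genes. An unadjusted p under 0.05 was found for 1 of the 8 and for 8.53% of all genes. DESeq2 called *Irf8* (adjusted p = 0.186), where it called 178 of the 16029 genes tested. Without the 14-day WT lung of replicate 3, edgeR gave 0.74 with an adjusted p of 0.136, in a fit that called 123 of 15952 genes. That lung had the highest *Irf8* of its group, at 27.6 FPKM. No other fit that left out 1 lung called any of the 8 genes in the interaction.

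**Figure D4:**
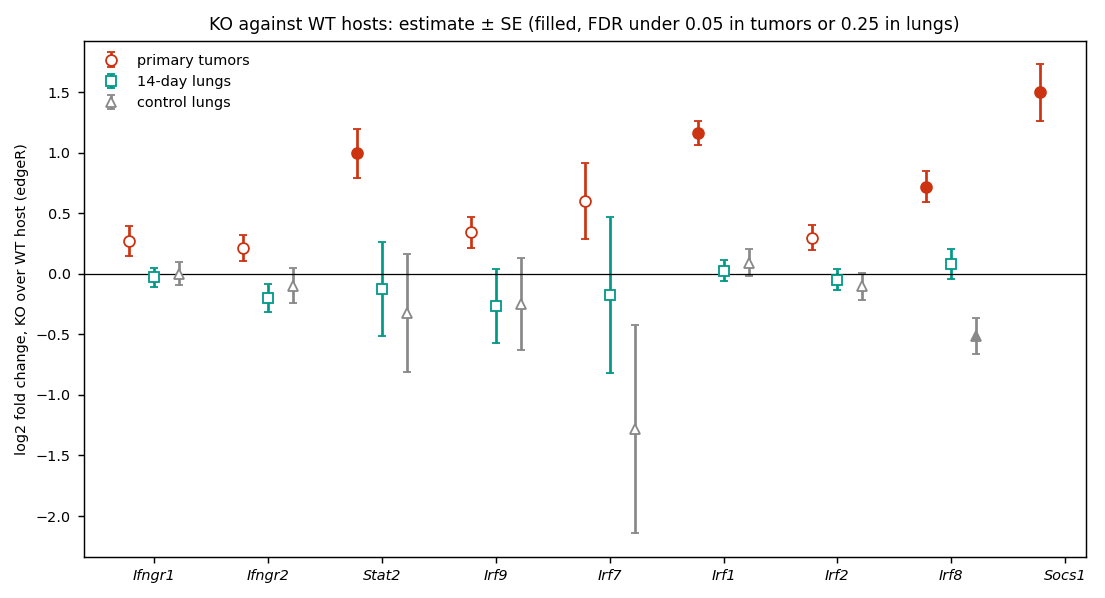
Log2 fold change of KO over WT (y axis, estimate ± SE of edgeR) for each gene in primary tumors, 14-day lungs and control lungs, with filled points past the FDR limit. The 4 filled tumor points lie between 0.72 and 1.497, and *Irf8* in control lungs is filled at -0.51.

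The effect of the host genotype was compared directly between tumors and 14-day lungs. For *Irf1* it was larger in tumors by 1.13 on the log2 scale (SE 0.15, adjusted p = 0.000218), the 1 call among the 9, against 0.707% of all genes. The same difference was 0.63 for *Irf8* (SE 0.20, adjusted p = 0.176) and 1.11 for *Stat2* (SE 0.52, adjusted p = 0.438). For *Socs1*, which entered this fit through its tumor counts and had 1 to 8 counts in a 14-day lung, the estimate of 1.18 (SE 0.51) is a description. The fit took its 24 samples as independent, although KO tumors and 14-day KO lungs of the same number may share a mouse. A block by replicate number within each genotype also gave 1 call among the 9. Without the 3 lungs that stood apart *Stat2* was called as well, at 1.29 (adjusted p = 0.0254), and without the 14-day KO lung of replicate 2 alone at 1.73 (adjusted p = 0.0359). The KO tumor of replicate 2, the highest for *Stat2* at 33.9 FPKM, stayed in both of these fits.

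In WT hosts 5 of the 9 genes, or 4 of 8 without *Socs1*, differed between tumor and 14-day lung at an FDR of 0.05. So did 75.5% of all genes, and 55.7% of all genes had groups that did not overlap. *Ifngr1* was lower in tumors, with a log2 fold change of -1.57 (SE 0.11, adjusted p = 1.84e-12), at 18.7 to 36.4 FPKM against 68.4 to 96.1 in lungs. *Irf1* (-0.88, SE 0.11, adjusted p = 3.80e-08) and *Irf2* (-0.63, SE 0.10, adjusted p = 3.01e-06) were lower in WT tumors without overlap. *Irf9* was lower by an estimate of -0.62 (SE 0.27, adjusted p = 0.0447), with overlap, and this call was lost in 8 of the 12 fits that left out 1 sample: the WT lungs of replicates 3, 4 and 5 and the WT tumors of replicates 1, 2, 4, 5 and 6. The adjusted p then reached 0.189, without the WT lung of replicate 5. Without the 3 lungs that stood apart the estimate for *Irf9* was -0.33 (adjusted p = 0.0423), and *Irf7* was called as well, higher in tumors at 0.82 (adjusted p = 0.0274), where the estimate with all samples was -0.06. *Socs1*, the fifth, failed the filter on low counts in the lungs and entered this fit through the tumors, which fixed its direction, so its values are a description. It had 1 to 8 counts in 14-day WT lungs and 9 to 15 in WT tumors, or 0.16 to 1.55 and 1.56 to 3.04 FPKM, with an estimate of 2.01 on the log2 scale (SE 0.35).

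*Irf1* was highest in KO tumors (75.1 FPKM), then in 14-day KO (66.3) and WT lungs (65.6) and in control KO (58.5) and WT lungs (54.5), where neighbours in this order overlapped. It was lowest in WT tumors (35.1 FPKM), apart from control WT lungs. *Socs1* was highest in KO tumors, next in WT tumors without overlap, and lowest on average in the 4 lung groups. The lowest WT tumor, at 1.56 FPKM (9 counts), was level with the highest lung, at 1.55 FPKM (8 counts). *Ifngr1* was 81.0 to 87.4 FPKM on average in the 4 lung groups, which overlapped, and apart from them 32.5 in KO and 27.1 in WT tumors. *Irf2* was 13.9 to 15.9 FPKM in lungs, 11.9 in KO and 9.96 in WT tumors, and *Ifngr2* 12.6 to 14.9 in all 6 groups, each overlapping with its neighbour. *Irf8* ranged from 29.2 FPKM in KO tumors through 22.6 in control WT lungs to 15.2 in control KO lungs, with overlap of each group and the next. *Irf7* had its highest mean in KO tumors (43.4 FPKM) and its lowest in control KO lungs (11.5), with or without the 3 lungs that stood apart. *Irf9* had its highest mean in 14-day WT lungs (34.2 FPKM), which included the lung at 66.8, and its lowest in WT tumors (21.8). Without the 3 lungs the 14-day WT lungs (27.71) and KO tumors (27.75) were level, and the lowest mean was that of 14-day KO lungs (20.7). *Stat2* had its highest mean in KO tumors (20.5 FPKM) in either case, while the lowest, control KO lungs at 9.78 with all samples, was level with the other lung groups but 14-day WT (9.65 to 9.78) without the 3 lungs. For all 3 genes neighbours in the order of all samples overlapped.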

How the data were processed

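Poly(A)-selected RNA of 32 mouse samples was sequenced in pairs of reads by the study. The authors aligned reads with STAR to mm10 (GRCm38) and deposited RSEM expected counts, given as whole numbers, and RSEM FPKM. The strand setting of the counting is not given in the sources used here. Replicates came from GEO's titles, and the study's text describes the samples of a group as taken from separate animals.

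Counts were tested with edgeR 4.0.16 (quasi-likelihood, TMM, filterByExpr) in R 4.3.3, separately for 12 tumors, 20 lungs and 24 samples of 14 days, with Benjamini-Hochberg adjustment over all genes tested. Limits were an FDR of 0.05 for tumors and tissues and 0.25 for lungs, where the study's own rule added a fold change, tried here as an alternative. SE was the log2 fold change over the root of F. Adjusted p in the text are from these fits unless another tool is named. Ratios were tested by two-sided exact permutation (scipy 1.17.1). Figures used matplotlib 3.10.9. Alternatives were DESeq2 1.42.0, limma 3.58.1 on log2 FPKM, other scaling, filters and limits, a replicate block, and each sample left out. GC offsets and leaving out 3 lungs were chosen after seeing the data. The scripts were tested on simulated data.

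The members, gene lists and markers were chosen with earlier results of these data known. Named pathway genes were Irf3, Irf4, Irf5, Jak1, Jak2, Tyk2, Ifnar1, Ifnar2 and Ifng, and per other role the 3 called genes of smallest p. Some items of the fixed lists are not reported here. The most alike genes were the 3 of highest r. *Myd88*, *Isg15*, *Cxcl10*, *Ido1* and marker genes are named outside this rule, after their values were seen. Depth was 4446323 to 8318711 counts per sample. Same-numbered KO tumors and 14-day KO lungs deviated together (r of 0.12 to 0.30 in 6 of 6 pairs over 8096 genes). In 6 of 6 the KO tumor was closest to the lung of its own number, so numbers may pair these. In the other pairs of groups not every pair passed 0.1. In 72 pairs of replicates counts differed beyond sampling noise (chi-squared per degree of freedom 2.43 to 15.0).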

Additional observations from a re-analysis of the deposited data

Results flagged for a closer look

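Of 54 groups of values tested, 14 held a sample whose gap to the nearest other exceeded Dixon's limit, where chance gives about 5% of groups. In the control WT lung of replicate 4, *Irf7* was 59.77 FPKM (others 13.71 to 19.58), *Irf9* 48.74 (others 21.06 to 23.77), *Stat2* 20.02 (others 9.22 to 9.97) and *Ifngr1* 98.22 (others 82.87 to 85.46). In the 14-day WT lung of replicate 5, *Irf7* was 118.89 FPKM (others 6.84 to 32.52), *Irf9* 66.78 (others 18.25 to 33.25) and *Stat2* 37.49 (others 8.79 to 16.06). In the 14-day KO lung of replicate 2, *Irf7* was 117.27 FPKM (others 10.98 to 16.28), *Irf9* 66.85 (others 17.62 to 24.26), *Stat2* 40.33 (others 8.39 to 11.96), and *Ifngr1* was low at 64.18 (others 80.03 to 89.37).

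*Irf9* was 28.37 FPKM in the WT tumor of replicate 3 (others 19.59 to 22.02), and *Ifngr2* 20.74 in the WT tumor of replicate 6 (others 10.25 to 12.98). *Socs1* was 1.55 FPKM in the 14-day WT lung of replicate 2 (others 0.16 to 0.61), at few counts. The host genotype effect on *Irf1* differed between tumors and 14-day lungs by 1.13 on the log2 scale in edgeR's test (adjusted p = 0.000218).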

How the results depend on the processing

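In tumors 4 of the 9 genes were called by edgeR, DESeq2, the replicate block and each of 12 fits without 1 tumor, 3 by limma (*Irf8* lost) and where every tumor needed 10 counts (*Socs1* not tested), 6 at an FDR of 0.25 and 2 with a 2-fold limit. Their log2 fold changes ran over 1.07 to 1.23 (*Irf1*), 1.13 to 1.59 (*Socs1*), 0.60 to 0.81 (*Irf8*) and 0.78 to 1.10 (*Stat2*). The 1 call in control lungs became 0 with RLE size factors, no filter, the replicate block, limma with either pseudocount, an FDR of 0.05, a 1.5-fold limit, GC offsets or any control lung left out (0 to 0), and 2 with only the compared groups. The interaction gave 1 call with DESeq2 and 0 to 1 with 1 lung left out. WT 14-day against control lungs gave 0 to 1. The genotype effect in tumor minus lung gave 2 calls at an FDR of 0.25 and without the 3 lungs, and 1 to 2 with 1 sample left out.

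Signs turned in 32 of 899 estimates of the 9 genes and the named pathway genes under alternatives other than leaving out 1 sample, and in 53 of 1104 with 1 sample left out. None was of an estimate past the limit as reported, and 1 turned past it (*Irf7*, tumor against lung in WT, without the 3 lungs). No sign of the 9 genes turned in tumors. In control lungs *Ifngr1*, *Ifngr2*, *Irf9* and *Stat2* turned, in the interaction *Ifngr1*, *Irf2*, *Irf7*, *Irf9* and *Stat2*, and in tumor against lung *Ifngr2*, *Irf7* and *Irf8*. Examples elsewhere were *Irf9* (-0.19), *Stat2* (-0.02) and *Ifngr2* (-0.02) in KO 14-day against control lungs without the 3 lungs, *Irf7* in WT lungs with the block (-0.19) and the *Ifngr2* to *Ifngr1* ratio of KO 14-day against control lungs in CPM (0.07). With 1 sample left out, ranges crossing 0 included -0.20 to 0.46 (*Irf9*) and -0.02 to 0.79 (*Stat2*) in KO 14-day against control lungs, and -0.04 to 0.54 (*Irf9*), -0.57 to 1.08 (*Irf7*) and -0.03 to 0.74 (*Stat2*) in WT. They were -0.69 to 0.02 (*Irf9*), -1.44 to 0.72 (*Irf7*) and -0.75 to 0.32 (*Stat2*) in KO against WT lungs at 14 days, each highest without the WT lung of replicate 5, and -0.09 to 0.00728 for *Irf3* in tumors. For ratios they were -0.23 to 0.07 (*Ifngr2* to *Ifngr1*, tumors), -0.24 to 0.05 (the same, KO 14-day against control), -0.05 to 0.11 (*Irf1* to *Irf2*, KO 14-day against control) and -0.03 to 0.14 (the same, KO against WT at 14 days). The causes were not tested.

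Over all genes and all alternatives, those without 1 sample included, calls ranged from 146 to 1446 in tumors (347 as reported, 549 by DESeq2), 6 to 513 (169) and 0 to 753 (373) for 14-day against control KO and WT lungs, 15 to 218 (138) for KO against WT at 14 days, 3 to 1189 (156) in controls, 0 to 178 (8) for the interaction and 46 to 591 (114, and 72 with the block) for tumor minus lung. The block changed no other call of the 9 genes. *Socs1* counts limit what lungs can show.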

Other observations

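Across the interferon pathway list, calls in lungs are set here beside those over all genes. Of 88 genes tested by edgeR, 0 passed in KO lungs between 14 days and control (6 at an unadjusted p under 0.05), where 1.05% of all genes passed and 8.64% had such a p. In WT lungs 1, the adaptor gene *Myd88*, was higher, at a log2 fold change of 0.33 (adjusted p = 0.186), with 4 of the 88 at an unadjusted p under 0.05, against 2.33% of all genes passing and 11.8% with such a p. Between KO and WT lungs at 14 days 0 passed, with 5 at an unadjusted p under 0.05, against 0.861% passing and 8.34% over all genes. In control lungs 1, *Irf8*, was lower in KO mice, with 6 at an unadjusted p under 0.05, against 0.973% passing and 11.6% over all genes. Of 91 genes, 11 had a larger host genotype effect in tumors than in 14-day lungs, among them 7 of the 13 type II targets and 0 of the 13 type I targets. Of these 91, *Cxcl10*, *Ido1* and *Socs1* were too low to be tested in the lungs alone and entered through the tumors. Without them 10 of 88 were called, with 6 of 11 type II targets and 31 at an unadjusted p under 0.05, against 34 of the 91 with them. Over all genes tested 0.558% had a larger effect in tumors at that limit, 0.707% were called in either direction, and 10.9% had such a p.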
